A study of Homo sapiens with 2 samples.

Results

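EF-hand proteins of the secretory pathway are calcium-binding proteins of the lumen of the endoplasmic reticulum (ER) and the Golgi. The 7 genes described here are named members of this family. No value entered the rule that picks them, although earlier results of these data were known when it was set. They are the 5 genes of the CREC family (CALU, RCN1, RCN2, RCN3 and SDF4) and the 2 nucleobindin genes (NUCB1 and NUCB2), and all 7 were found among the 58735 genes of the deposited table. Polyadenylated or other RNA selection was not stated in the labels, which give total RNA. The RNA came from SF-539, an established human glioblastoma cell line grown in DMEM with fetal bovine serum. The first population had been infected with the lentiviral control vector pGIPZ-CTRL (shControl), and the other with a lentivirus carrying an shRNA against FKBP9 (shFKBP9), and in both, stable clones were selected with puromycin. Each condition had 1 library, which leaves the differences below without a replicate check and allows no test between the conditions. How many clones each population held, and which of the study's shRNAs against FKBP9 it carried, were not given in the labels.

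An EF-hand is a helix-loop-helix fold whose loop holds a calcium ion. CREC proteins carry several EF-hands, bind calcium with low affinity, and most of them stay in the ER or the Golgi by a signal at their C-terminus that resembles the KDEL sequence of ER chaperones. Nucleobindins are related calcium-binding proteins, of which nucleobindin 1 is a major calcium-binding protein of the Golgi. FKBP9, the target of the shRNA, is a prolyl isomerase of the ER that also has EF-hands, which is why these genes were set beside it.

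In the deposited values, FPKM, fragments were counted per gene and scaled by gene length and library size. Each value could be turned back into whole fragments with the gene length deposited beside it, which gave 18116873 fragments on genes in shControl and 17158514 in shFKBP9. Ratios are log2 of FPKM in shFKBP9 over FPKM in shControl with 0.1 added to both, which slightly understates differences of low genes. Ratios of the 7 genes, and of part of the related genes, are given with a 95% interval, computed exactly (Clopper-Pearson) from the fragments alone, with nothing added; it reflects counting error and not the spread between cultures. FKBP9 itself was at 49.8 FPKM in shControl and at 4.68 FPKM in shFKBP9, a log2 ratio of -3.38 (-3.56 to -3.27). The cell type given in the labels is epithelial glioma cells. The mesenchymal markers VIM, COL1A1, COL1A2 and FN1 lay between 277 and 884 FPKM, whereas the epithelial markers EPCAM, CDH1, KRT18 and KRT19 and the glial markers GFAP, OLIG2, SOX2 and S100B were all under 1 FPKM in both libraries, and KRT8 and NES were at 1.28 and 2.36 FPKM in shControl. The summed FPKM of 3 keratinocyte markers was 0.127 in shControl and 1.10 in shFKBP9, and that of 4 blood and plasma cell markers was 0.0847 and 1.59, with PTPRC at 0 fragments in both. Their part in the values below was not tested.

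The 7 genes differed in level far more than the libraries did. CALU stood first at 402 FPKM in shControl, SDF4, RCN1 and NUCB1 followed at 40.3 to 67.8 FPKM over both libraries, and RCN2, NUCB2 and RCN3 were below 10 FPKM. All 7 exceeded 1 FPKM in both libraries and were therefore tested, that is, counted among the 12741 genes that reached this level in at least 1 of the libraries. The summed FPKM of the 7 genes was 583 in shControl and 642 in shFKBP9, 10.2% higher, and CALU held 69.1% and 70.9% of it with the deposited gene lengths. Without CALU the sum was 180 and 187 FPKM. In bulk RNA, fewer cells that express a gene and less of its RNA per cell cannot be told apart.

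**Figure D1:**
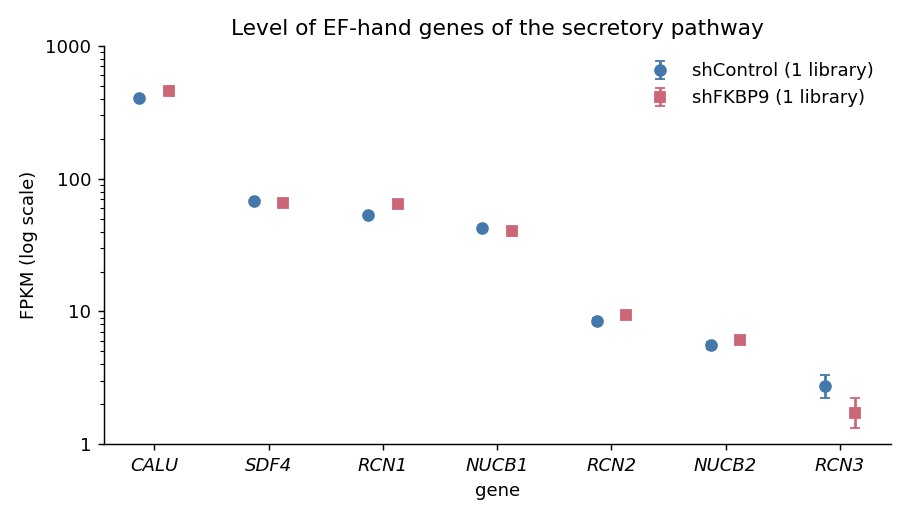
FPKM of the 7 genes on a log axis in the shControl library (circles) and the shFKBP9 library (squares), with exact 95% Poisson intervals of the fragments, which for most genes are smaller than the symbols. CALU lies above all others in both libraries at 402 and 455 FPKM, and RCN3 below all others at 2.74 and 1.73.

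CALU (ENSG00000128595) encodes calumenin, a CREC protein of the ER that is also secreted and is known as an inhibitor of vitamin K-dependent gamma-carboxylation. In hg38 the gene spans 128739292 to 128771807 of chromosome 7, and GENCODE release 44 gives 7 exons for its canonical transcript. It had 402 FPKM in shControl, from 33054 fragments, and 455 FPKM in shFKBP9, from 35478 fragments. In shControl, 67 of the tested genes had a higher FPKM than CALU. The level was 13.2% higher in shFKBP9, with a log2 ratio of 0.18 (95% interval 0.16 to 0.20). This interval is the narrowest of the 7, because CALU had the most fragments, and it leaves out 0. A log2 ratio further from 0 than that of CALU was found in 43.4% of tested genes, and in 29.1% of those that reached 10 FPKM.

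RCN1 (ENSG00000049449) encodes reticulocalbin 1, a resident of the ER lumen, and lies on chromosome 11 from 32090904 to 32105755 with 6 exons in its canonical transcript. It had 53.3 FPKM in shControl, from 4510 fragments, and 64.1 FPKM in shFKBP9, from 5142 fragments. This was the largest relative excess in shFKBP9 among the 7 genes, 20.2%, with a log2 ratio of 0.27 (0.21 to 0.32). Of the tested genes, 12.9% had a higher log2 ratio than RCN1, and of the 4532 that reached 10 FPKM, as RCN1 did, 7.17% had one.

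A processed pseudogene of RCN1 had its own fragments. RCN1P2 (ENSG00000214455), a copy on chromosome 13 from 45390353 to 45391267, had 13.6 FPKM in shControl, from 226 fragments, and 15.8 FPKM in shFKBP9, from 248 fragments. Its log2 ratio was 0.21 (-0.06 to 0.48). Over 913 aligned bases, RCN1P2 and the canonical RCN1 transcript of GENCODE release 44 were 99.1% identical, with 8 mismatches and 1 gap, and 219 of its 816 windows of 100 bases were found unchanged in RCN1. A stretch of 150 bases from the coding sequence of RCN1 is shown beside the same stretch of its copy, since within it only the base in capitals, the 1 base that differs, tells them apart.
RCN1, bases 565 to 714 of the transcript: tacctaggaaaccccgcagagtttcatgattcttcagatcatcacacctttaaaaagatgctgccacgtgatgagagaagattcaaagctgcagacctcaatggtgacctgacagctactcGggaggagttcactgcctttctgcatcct
RCN1P2, bases 363 to 512 of the transcript: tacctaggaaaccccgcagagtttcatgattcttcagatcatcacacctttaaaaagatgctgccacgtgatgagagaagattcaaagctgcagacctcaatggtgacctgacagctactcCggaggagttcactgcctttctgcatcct
RCN1 shares sequence with further genes. Of its 4725 windows of 100 bases, counted over all its transcripts, 839 also occur in the overlapping gene ENSG00000285283 on the same strand (17.8%), 544 in the long noncoding RNA TPT1-AS1 on the opposite strand (11.5%), and 219 in RCN1P2 (4.63%). ENSG00000285283 had 0 fragments in both libraries. The values of RCN1 and of these genes are therefore uncertain to the extent that fragments of shared sequence were split between them or left out of the counts. Summed with its copies RCN1P1 and RCN1P2 and with overlapping genes, RCN1 had a log2 ratio of 0.26. RCN1P1, the other named copy, had 0 fragments in both libraries. In GENCODE release 44 TPT1-AS1 runs through the site of RCN1P2 on the opposite strand, and it had 312 fragments in shControl and 281 in shFKBP9. Strand was not stated to have been used in counting, so reads of the strands cannot be told apart there.

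RCN2 (ENSG00000117906) encodes reticulocalbin 2, also known as ERC-55, and lies on chromosome 15 from 76931619 to 76954392. It had 8.48 FPKM in shControl, from 1538 fragments, and 9.37 FPKM in shFKBP9, from 1612 fragments. This corresponds to a log2 ratio of 0.14 (0.04 to 0.25), an interval that leaves out 0 by little. No named copy or overlapping gene of RCN2 was in the deposited table.

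RCN3 (ENSG00000142552) encodes reticulocalbin 3, an ER protein known from collagen-producing tissues such as lung and skin, and lies on chromosome 19 from 49527618 to 49546962. It was the gene of the family with the fewest fragments and the one whose libraries lay furthest apart. It had 2.74 FPKM in shControl, from 104 fragments, and 1.73 FPKM in shFKBP9, from 62 fragments. The level in shFKBP9 was 62.9% of that in shControl, and the log2 ratio, with 0.1 added to both, was -0.64. The 95% interval, from -1.15 to -0.20, leaves out 0 but spans differences from slight to more than 2-fold. Of the tested genes, 3.96% had a lower log2 ratio than RCN3. Among the 8209 tested genes below 10 FPKM in both libraries, as RCN3 was, 5.97% did. The 6 nearest tested genes on the chromosome, 3 on each side, lay around a median of 0.08, with 4 higher in shFKBP9, of which RF00019 rested on 1 and 2 fragments.

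SDF4 (ENSG00000078808) encodes Cab45, a CREC protein of the Golgi lumen that takes part in sorting secretory proteins at the trans-Golgi network together with the calcium pump encoded by ATP2C1. It lies on chromosome 1 from 1216908 to 1232031. It had 67.8 FPKM in shControl, from 5781 fragments, and 65.1 FPKM in shFKBP9, from 5260 fragments. The level was 4.04% lower in shFKBP9, with a log2 ratio of -0.06 (-0.11 to -0.01). A ratio further from 0 was found in 79.3% of tested genes, and in 72.3% of those that reached 10 FPKM. With both libraries scaled by the median ratio of expressed genes, the interval of SDF4 was -0.10 to 0.01 and held 0.

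NUCB1 (ENSG00000104805) encodes nucleobindin 1, a Golgi calcium-binding protein that also binds G protein alpha subunits, and lies on chromosome 19 from 48900050 to 48923372 with 13 exons in its canonical transcript. It had 42.5 FPKM in shControl, from 3027 fragments, and 40.3 FPKM in shFKBP9, from 2727 fragments. These gave a log2 ratio of -0.07 (-0.15 to 0.0013). Its antisense gene NUCB1-AS1 had 2 and 1 fragments, too few to alter this value. NUCB2 (ENSG00000070081) encodes nucleobindin 2, the precursor of the peptide nesfatin-1, and lies on chromosome 11 from 17208153 to 17349980 with 14 exons. It had 5.56 FPKM in shControl, from 908 fragments, and 6.08 FPKM in shFKBP9, from 942 fragments, with a log2 ratio of 0.13 (-0.0032 to 0.26). Both intervals held 0 by little, so with the deposited scaling no difference of the nucleobindins exceeded counting error. Rescaled to TPM, the interval of NUCB1 lay below 0, at -0.17 to -0.02, and with median scaling that of NUCB2 lay above 0, at 0.01 to 0.28.

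**Figure D2:**
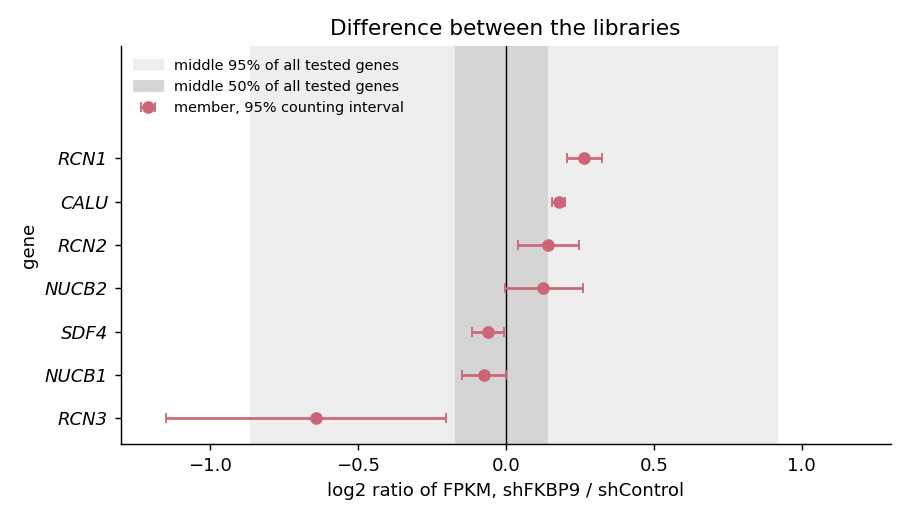
Log2 ratio of FPKM in shFKBP9 over shControl for each of the 7 genes (points) with the exact 95% counting interval (bars), over the middle 95% (light band) and the middle 50% (dark band) of all 12741 tested genes. RCN1, CALU and RCN2 lie above 0 with their intervals, RCN3 and SDF4 below, and all 7 points lie within the light band, which runs from -0.86 to 0.92.

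None of the 7 genes passed 2-fold in either direction, a limit on the ratio alone with no p-value, against 4.21% of tested genes, 2.02% higher and 2.19% lower. A smaller limit was set at a log2 ratio of 0.32 either way, which is 25% higher or 20% lower. Only RCN3 was past it, on the lower side, as were 20.9% of tested genes, 11.1% lower and 9.83% higher, so that 1 gene of 7 is a share near this background. RCN1, at 0.27, lay just under the limit on the higher side. The interval left out 0 for 5 of the 7 genes, against 37.9% of tested genes. It lay above 0 for CALU, RCN1 and RCN2, against 17.2%, and below 0 for RCN3 and SDF4, against 20.8%. Intervals narrow with the number of fragments: of the 4532 genes that reached 10 FPKM, 55% had an interval that left out 0 and 7.97% were past 0.32. Of the 7 genes, 4 were higher and 3 lower in shFKBP9. Their log2 ratios had a median of 0.13, and that of all tested genes was -0.02.

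**Figure D3:**
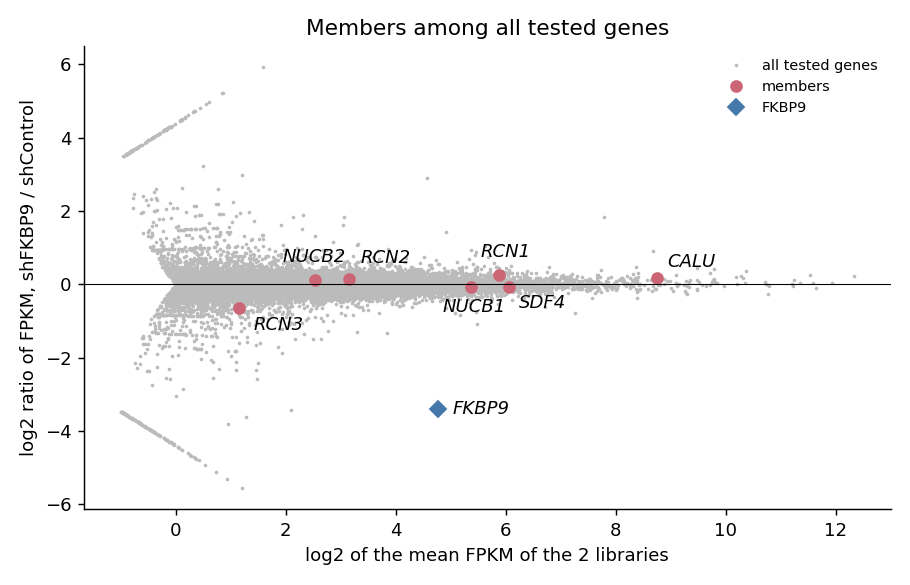
Log2 ratio of FPKM in shFKBP9 over shControl against log2 of the mean FPKM for all 12741 tested genes (grey), the 7 members (circles) and FKBP9 (diamond). The members lie within the cloud of genes of their level, RCN3 lowest among them at -0.64, and FKBP9, at -3.38, lies further from 0 than every other gene that reached 10 FPKM, whereas 1.62% of all tested genes lie further from 0 than FKBP9.

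FPKM is per length, so a comparison of levels between genes depends on the length used for each. With the deposited lengths, the order in shControl was CALU, SDF4, RCN1, NUCB1, RCN2, NUCB2 and RCN3, and every step exceeded counting error. SDF4 was 1.27-fold above RCN1 there (1.22 to 1.32). In shFKBP9 the same order held, but SDF4 was 1.02-fold above RCN1 (0.977 to 1.06), so these neighbours were not separated with those lengths. The step from CALU to SDF4 was 5.93-fold in shControl and 7.0-fold in shFKBP9. The deposited length covers more sequence than the canonical transcript for 6 of the 7 genes, most for NUCB2 with 9025 bases against 2300, and a longer length gives a lower FPKM for the same fragments. Divided by the canonical length, NUCB2 had 21.8 FPKM in shControl and RCN2 13.7, so this pair changed places, while the order of the other genes stayed. The gaps moved more: the step from CALU to SDF4 was then 2.10-fold in shControl and 2.48-fold in shFKBP9, and CALU held 47.8% of the summed FPKM in shControl. In shFKBP9, SDF4 was then at 158 FPKM and RCN1 at 126, a step whose counting interval began at 1.21-fold, so the pair was separated there. This choice moves levels only, because the length cancels in a ratio between libraries.

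RefSeq promoters of GRCh38.p14, 300 bases each, matched all 7 genes, with a further start for NUCB2, which makes 8 promoters. On either strand, CCACG was found in 6 of the 8 promoters and in 38.1% of all 35116 promoters, and CCAAT in 7 of the 8 and in 34.6% of all. CCAAT was picked after these promoters had been read, so its number among the members is a description only. The promoters without CCACG were that of RCN2 and the further one of NUCB2, which also had no CCAAT. These are the end pieces of the ER stress response element, in which they stand 9 bases apart and by which the factors ATF6 and XBP1 are known to act. The whole element was found in 0 of the members' promoters and in 0.0769% of all, and TGACGTGG, another element of this response, in 0 and 0.729%. CCACG lies within the whole element and, on the other strand, shares bases with TGACGTGG. The promoters of the 7 genes held between 59.7% and 78% G and C, against a median of 58.7% over all. The promoters of the genes with the highest ratios and of RCN3, which had the lowest, are shown with CCAAT and CCACG on either strand in capitals.
CALU promoter, chr7:128739109-128739408, + strand: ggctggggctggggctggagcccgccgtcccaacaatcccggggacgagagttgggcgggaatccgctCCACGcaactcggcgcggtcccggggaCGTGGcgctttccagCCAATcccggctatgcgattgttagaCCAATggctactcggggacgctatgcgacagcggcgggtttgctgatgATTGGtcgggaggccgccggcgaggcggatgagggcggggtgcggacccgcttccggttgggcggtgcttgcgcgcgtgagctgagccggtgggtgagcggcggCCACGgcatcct
RCN1 promoter, chr11:32090824-32091123, + strand: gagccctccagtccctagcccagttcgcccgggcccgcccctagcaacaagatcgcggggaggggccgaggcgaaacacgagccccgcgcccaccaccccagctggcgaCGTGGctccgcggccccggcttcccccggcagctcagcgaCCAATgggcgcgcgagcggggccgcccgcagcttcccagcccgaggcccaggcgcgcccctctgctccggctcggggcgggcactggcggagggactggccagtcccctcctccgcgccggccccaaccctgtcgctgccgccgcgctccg
RCN3 promoter, chr19:49527753-49528052, + strand: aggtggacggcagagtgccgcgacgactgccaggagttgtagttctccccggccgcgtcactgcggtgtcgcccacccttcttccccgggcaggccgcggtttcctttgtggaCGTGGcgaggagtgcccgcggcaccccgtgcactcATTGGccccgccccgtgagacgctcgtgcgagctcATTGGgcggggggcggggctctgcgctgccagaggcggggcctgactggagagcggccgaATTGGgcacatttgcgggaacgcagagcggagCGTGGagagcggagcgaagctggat
CCACG and CCAAT were found 3 and 3 times in the CALU promoter, 1 and 1 times in that of RCN1, and 2 and 3 times in that of RCN3. Whether these pieces bear on the ratios was not tested. A match of letters is a description and does not show that a factor binds.

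Other EF-hand proteins gave a mixed picture. Apart from FKBP9, the EF-hand FKBPs of the ER were at log2 ratios of 0.03 for FKBP10, 0.21 for FKBP14 and 0.20 for FKBP7. Of these, FKBP14 alone had an interval above 0 (0.04 to 0.39), as had 17.2% of all tested genes. FKBP10, a collagen chaperone, was at 86.0 FPKM in shControl and 88.1 in shFKBP9. Of 5 further EF-hand proteins of the ER, 3 had intervals below 0 and 0 above, with a median log2 ratio of -0.17. Over all tested genes the shares were 20.8% below and 17.2% above, and with 5 genes nothing is read from the count. PRKCSH, the beta subunit of glucosidase II, was at -0.17 (-0.22 to -0.13), from 9354 and 7863 fragments. The calcium sensor STIM1 was at -0.18 (-0.28 to -0.08) and its relative STIM2 at -0.06 (-0.28 to 0.15). P4HTM, a transmembrane prolyl hydroxylase, was at -0.34 (-0.53 to -0.17), past the limit of 0.32, as were 20.9% of all tested genes. With 1 added to FPKM in place of 0.1, P4HTM was at -0.28 and no longer past it. MCFD2, which works with LMAN1 in exporting coagulation factors from the ER, was at 0.05 (-0.01 to 0.11).

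Of the 9 secreted EF-hand proteins, 4 were tested, with 3 intervals above 0 and 1 below. These genes were above 10 FPKM, where 55% of genes had an interval that left out 0 and 7.97% were past 0.32. SPOCK1, a secreted proteoglycan, had 11.6 FPKM in shControl and 17.0 in shFKBP9 (log2 ratio 0.54, 0.44 to 0.65) and was past the limit of 0.32. SPARC, a collagen-binding matrix protein, had 379 FPKM in shControl and 449 in shFKBP9 (0.25, 0.23 to 0.27), close to CALU in level. FSTL1 was at 0.09 (0.05 to 0.14) and SMOC1 at -0.16 (-0.30 to -0.02). Of the 19 cytosolic EF-hand proteins, all tested, 7 had intervals above 0 and 5 below, with a median log2 ratio of -0.02, which is also the median of all tested genes. Over all tested genes 17.2% had intervals above 0 and 20.8% below. Most of the 19 reached 10 FPKM, where 55% of genes had an interval that left out 0 and 7.97% were past 0.32. CETN3, a centrin, was the 1 gene of the 19 past 0.32 (log2 ratio 0.35, 0.12 to 0.58), against 20.9% of all tested genes. CETN3 was below 10 FPKM, and with 1 added to FPKM it was at 0.30, under the limit. S100A6 was the most abundant of them with 2339 FPKM in shControl and 2531 in shFKBP9 (0.11), S100A11 was at -0.03 and S100A10 at 0.04. Calmodulin gene CALM2 was at 0.27 (0.22 to 0.32) and the calpain gene CAPN1 at -0.21 (-0.27 to -0.14).

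Of 9 ER chaperones, 0 passed 0.32 either way, 2 had intervals above 0 and 5 below. All were above 10 FPKM, where 7.97% of genes passed 0.32 and 55% had an interval that left out 0. CALR, which encodes the calcium-binding chaperone calreticulin, had 757 FPKM in shControl and 756 in shFKBP9 (-0.0018, -0.02 to 0.02). HSPA5, the chaperone BiP, was at -0.12, P4HB at -0.03, PDIA6 at -0.23 and HYOU1 at -0.26, whereas HSP90B1 was at 0.25 (0.22 to 0.28), close to RCN1. The KDEL receptors, which return ER proteins from the Golgi, lay between -0.05 for KDELR1 and 0.06 for KDELR2, with KDELR3 at -0.03. Among 16 genes whose products are known to act with the members, 13 were tested, with 4 intervals above 0, 3 below and a median log2 ratio of 0.02, beside 17.2% above and 20.8% below over all tested genes. VKORC1, the vitamin K reductase that calumenin affects, had 11.3 FPKM in shControl and 14.1 in shFKBP9 (0.32, 0.14 to 0.50), just under the limit, and GGCX, the gamma-carboxylase, was at 0.02. ATP2C1, the Golgi calcium pump that acts with Cab45, had 21.6 and 23.8 FPKM (0.14, 0.07 to 0.21). SGMS1, a sphingomyelin synthase, was at -0.30 (-0.52 to -0.10), and the related synthase SGMS2 went the other way at 0.29 (0.08 to 0.53). CFL1, which encodes cofilin, was at -0.01, and GNAI2, a G protein alpha subunit, at -0.10. PCSK1, a protease of prohormones, was the 1 gene of these 13 past 0.32, against 20.9% of all tested genes. PCSK1 was at 0.36 with an interval from -0.02 to 0.82 that held 0. With 1 added to FPKM it was at 0.20, under the limit, and with median scaling VKORC1, at 0.33, passed the limit as well.

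**Figure D4:**
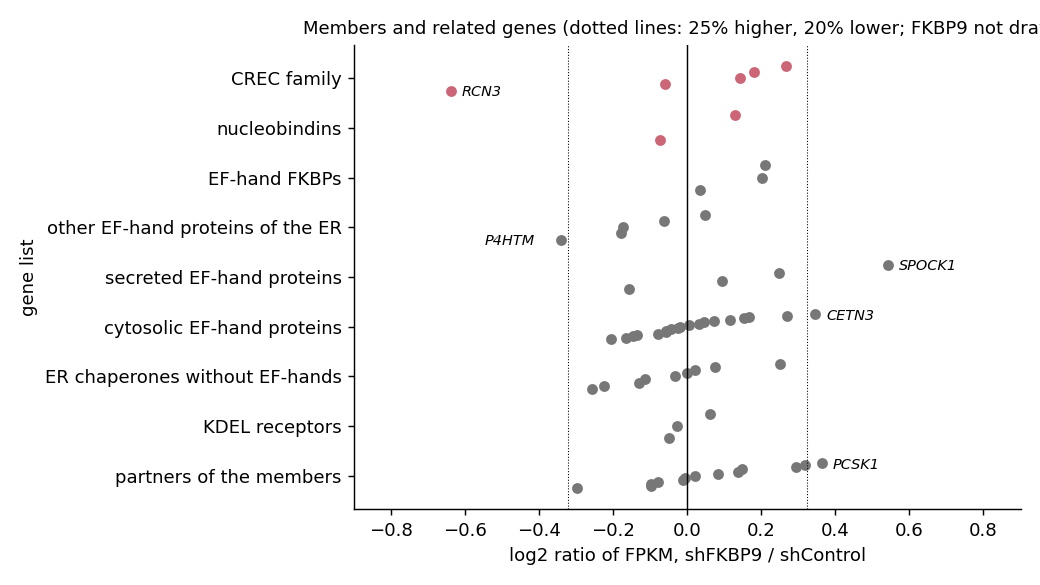
Log2 ratio of FPKM in shFKBP9 over shControl for each tested gene (points) of the CREC family and nucleobindins (red) and of 7 lists of related genes (grey), with dotted lines at 0.32 either way. FKBP9 is not drawn. RCN3 at -0.64 and SPOCK1 at 0.54 lie furthest from 0.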

How the data were processed

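RNA of SF-539 cells with the control shRNA and with the shRNA against FKBP9 was sequenced (1 library each). After quality filtering of the reads, the authors aligned read pairs to hg38 with HISAT2 2.0.5 and counted them per gene with featureCounts 1.5.0-p3, per the methods and the submitters' processing notes. The deposited values are FPKM, given with gene positions and lengths, and there were 0 further columns of values. The annotation release was not given in the sources used here. Fragments were recovered by dividing FPKM times length by the smallest step of each library, and values were called whole within 0.01 of a fragment. A gene was tested, that is, counted against 2-fold and against a log2 ratio of 0.32, where it reached 1 FPKM in a library.

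With 1 library per condition there was no test. Exact Clopper-Pearson and Poisson intervals at 95% cover counting error only. Alternatives were 1 or 0.01 added to FPKM in place of 0.1, median scaling, TPM, other minimum values, protein-coding genes alone, a 99% interval, and sums with copies and overlapping genes. TPM for the intervals and canonical lengths were added after seeing the data. The members and lists were chosen with earlier results of these data known. From each list of related genes, the 3 with the highest mean FPKM were named, with up to 3 more by largest ratio among tested genes with at least 50 fragments. GGCX, SGMS2, TPT1-AS1, OPN1SW and the promoter motif CCAAT fall outside the rules fixed and were added after their values were seen. The genes nearest the members, RF00019 and RNA5SP243 among them, are outside those rules as well. Transcripts and exons came from GENCODE release 44. Recovery and intervals were tested on simulated data. Calculations used scipy 1.17.1, numpy 2.4.6 and pandas 2.3.3 under Python 3.11.15, and figures matplotlib 3.10.9.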

Additional observations from a re-analysis of the deposited data

How the results depend on the processing

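The log2 ratios of the 7 genes kept their direction and stayed within their counting intervals in all 32 alternatives computed for them. That of RCN3 moved most, between -0.68 and -0.46. The number of members with an interval below 0, 2 as reported, became 1 with median scaling and 1 with a 99% interval, in both cases without SDF4, and 1 with at least 10 FPKM, without RCN3, but 3 with TPM, which added NUCB1. The number above 0, 3 as reported, became 4 with median scaling, which added NUCB2. It became 2 with at least 10 FPKM by the deposited lengths, without RCN2. With that minimum the number of members below -0.32 became 0, since RCN3 was below it. Among the related genes, P4HTM, CETN3 and PCSK1 were no longer past 0.32 with 1 added and fell under a minimum of 10 FPKM, and PCSK1 also under one of 1 FPKM in both libraries. VKORC1 passed the limit with median scaling, SGMS1 passed it on the lower side with TPM, at -0.32, and 2 secreted EF-hand genes did without a minimum. The counts over all genes followed the minimum and the addition. The 258 genes higher past 2-fold became 138 with 1 added, 2022 without a minimum, 40 with 1 FPKM in both libraries, 9 with 10 FPKM and 22 among protein-coding genes, and the 279 lower became 153, 1993, 41, 4 and 20. The 1253 genes above a log2 ratio of 0.32 became 5610 without a minimum, 812 with 1 FPKM in both libraries, 203 with 10 FPKM and 607 among protein-coding genes. The 1411 lower became 898 with 1 added, 6074 without a minimum, 158 with 10 FPKM and 718 among protein-coding genes. Intervals above 0, 2187 in all, became 1129 with 10 FPKM, and those below 0, 2646 in all, became 1362. No paired analysis was possible because each condition had 1 library. Depth limits RCN3, with 166 fragments in both libraries together, far more than the other members.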

Other observations

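The 6 tested genes nearest to CALU on chromosome 7, 3 on each side, lay around a median of -0.25 on the log2 scale, with 4 lower in shFKBP9. Of the other two, RNA5SP243 rested on 1 fragment in each library and OPN1SW was at 0.06 (95% counting interval -0.20 to 0.32), an interval that holds the 0.18 of CALU. OPN1SW, which encodes the blue cone opsin and lies next to CALU on the opposite strand, had 250 fragments in shControl and 247 in shFKBP9. In GENCODE release 44 it shares 79 windows of 100 bases with CALU transcripts on the other strand. Taken in the same way, the median of the nearest genes was 0.04 for RCN1, -0.06 for SDF4 and -0.03 for NUCB1. These medians lay on the same side of 0 as the member. Those for RCN2 (-0.09), NUCB2 (-0.03) and RCN3 (0.08) lay on the other side, as for CALU.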
